A study of Mus musculus with 2 samples.

Results

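The genes described here are the 10 mouse genes at the core of MHC class I antigen presentation: the heavy chains H2-K1 and H2-D1, the light chain B2m, the peptide transporter genes Tap1 and Tap2, the loading factor Tapbp, the immunoproteasome subunits Psmb8, Psmb9 and Psmb10, and the transcriptional regulator Nlrc5. They were chosen by symbol, and all 10 were found among the 31053 genes of the single-cell count matrices. The cells were bone marrow derived macrophage cultures from WT 129Sv mice, grown with macrophage colony-stimulating factor (M-CSF). On day 7 the cells of 1 library received 1 µg/ml of a truncated, non-polymerizing form of Tamm-Horsfall protein (THP or uromodulin, which the kidney tubule secretes) and those of the other received the vehicle, 5% dextrose, each for 18 h. There was 1 library per group, so the treatment cannot be told apart from the culture dish or the library preparation, and no test between groups was possible. Intervals below are exact 95% intervals (Poisson for levels, binomial for shares and ratios) that cover counting error only.

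MHC class I molecules show peptides from inside the cell to CD8 T cells and natural killer cells. Proteins are cut by the proteasome, the peptides are carried into the endoplasmic reticulum by the Tap1-Tap2 transporter, tapasin (Tapbp) holds the empty class I molecule beside the transporter, and the loaded heavy chain leaves for the surface bound to B2m. Interferons raise the genes of this pathway, and NLRC5 is a known transactivator of class I genes that acts through the SXY module, a set of promoter boxes that includes the X2 and Y boxes.

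Promoter sequences are shown first for the 3 genes of the surface complex, whose library difference was the largest of the set by CPM, and for the shared start region of Tap1 and Psmb9. RefSeq (GRCm38.p6, the C57BL/6J reference and not the 129Sv genome) gave promoter windows for 8 of the 10 genes, each from 250 bases before to 50 bases after the start. Tap2 and Nlrc5 had none. The stretches end at the base before the RefSeq start. Capitals mark matches, searched on both strands, to 5 motifs. The X2 core was searched as TGACG and the Y box as ATTGG. The core of the interferon regulatory factor site was searched as AGTGAAA. The NF-kB consensus and the interferon-stimulated response element are given by name. A gamma-activated site was also searched, as TTCNNNGAA.

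H2-K1 (chr17:34000348-34000547, minus strand): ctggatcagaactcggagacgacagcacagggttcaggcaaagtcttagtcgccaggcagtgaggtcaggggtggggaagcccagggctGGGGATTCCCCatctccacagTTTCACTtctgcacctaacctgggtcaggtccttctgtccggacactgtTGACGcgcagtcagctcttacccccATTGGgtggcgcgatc
H2-D1 (chr17:35262894-35263093, plus strand): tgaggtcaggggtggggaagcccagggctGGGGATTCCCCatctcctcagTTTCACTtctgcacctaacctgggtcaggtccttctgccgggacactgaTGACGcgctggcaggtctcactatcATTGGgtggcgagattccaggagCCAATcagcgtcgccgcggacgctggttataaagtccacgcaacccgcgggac
B2m (chr2:122147487-122147686, plus strand): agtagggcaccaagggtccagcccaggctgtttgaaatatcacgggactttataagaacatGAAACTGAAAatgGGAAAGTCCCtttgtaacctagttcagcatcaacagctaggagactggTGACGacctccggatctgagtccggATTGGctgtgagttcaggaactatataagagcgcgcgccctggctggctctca
Tap1 and Psmb9 (chr17:34187331-34187555, plus strand of Tap1): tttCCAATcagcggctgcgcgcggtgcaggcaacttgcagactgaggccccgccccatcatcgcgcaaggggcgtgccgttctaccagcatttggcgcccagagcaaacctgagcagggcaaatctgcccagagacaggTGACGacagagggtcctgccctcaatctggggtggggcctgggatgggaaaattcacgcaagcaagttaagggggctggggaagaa

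In H2-K1, H2-D1 and B2m a TGACG was followed by an ATTGG with 20 bases between them. This arrangement was picked after reading the windows of these same genes. It stood in the windows of 27 of 27025 mouse genes (0.0999%), among them H2-M3, another class I heavy chain gene. TGACG alone stood in 23% of genes and ATTGG alone in 41.1%, on either strand. Of the 27 genes, 18 were at 10 counts per 1000000 UMIs or more, these 3 included. Their median log2 ratio between the libraries was -0.11, and 7 of the 18 were above 0. H2-K1 and H2-D1 also held the NF-kB consensus, matched on both strands in overlapping positions, and the interferon regulatory factor core. B2m held the NF-kB consensus and the interferon-stimulated response element. The NF-kB consensus stood in 9.55% of genes, the interferon regulatory factor core in 5.04% and the response element in 3.99%. The gamma-activated site stood in 9.55% of genes, and of the 8 windows only in that of Psmb8. H2-K1 and H2-D1 matched at 89 of 100 bases in the stretch that holds these boxes. Tap1 and Psmb9 are divergent neighbours whose starts enclose the 225 bases shown, with 1 TGACG and no ATTGG at that spacing. A match is a description of the letters and not a measured binding site.

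Of the 10 genes, 4 lie close together in the annotation (GENCODE M21, GRCm38). Psmb9 (chr17:34181987-34187764, minus strand), Tap1 (chr17:34187553-34197225), Psmb8 (chr17:34197721-34201454) and Tap2 (chr17:34203527-34216321) are consecutive members of the set within the MHC. Tapbp (chr17:33915899-33929292), H2-K1 (chr17:33996017-34000347) and H2-D1 (chr17:35262730-35267499) lie on the same chromosome. Psmb10 (chr8:105935735-105938444), Nlrc5 (chr8:94434356-94527272) and B2m (chr2:122147686-122153083) lie elsewhere. H2-K1, H2-D1 and the H2-Q and H2-T genes are near-identical in parts of their sequence, so counting may have moved reads between them or dropped them, and their separate values are uncertain to that extent.

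After the cell filter the THP library held 12123 cells with 224825484 unique molecular identifiers (UMIs, 1 per captured RNA molecule) and the vehicle library held 10978 cells with 207662132. The median cell had 16113 and 17223 UMIs. The libraries shared 42 barcodes, of which 38 were kept in both. Across the 8012 genes with at least 10 CPM (UMIs of the gene per 1000000 UMIs) in either library, the median log2 ratio of CPM + 1, THP over vehicle, was -0.18. It fell with transcript length, from 0.10 in the shortest of 5 length groups to -0.51 in the longest. Both values bear on every ratio below: a ratio of 0 lies above the median gene.

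The surface complex was higher in the THP library and, by CPM, higher by nearly the same amount for its 3 genes. H2-K1, a classical heavy chain, stood at 738.5 CPM (734.9 to 742.1) with THP and 522.7 CPM (519.6 to 525.9) with vehicle. H2-D1, the other classical heavy chain, stood at 1215 and 853.7 CPM. B2m, the light chain shared by all class I molecules, stood at 1782 and 1258 CPM. The log2 ratios were 0.50, 0.51 and 0.50, or 1.41, 1.42 and 1.42-fold, and they ranked above 96.9%, 97.1% and 97.0% of all genes. The intervals of the 2 libraries did not overlap for any of these 3 genes. The same held for every other gene of the set except Nlrc5, so it does not set the surface complex apart. How many of all genes did the same was not counted. The log2 ratios of H2-K1, H2-D1 and B2m were less alike on other scales: 0.47, 0.51 and 0.32 with the length trend removed, and 0.55, 0.41 and 0.53 with equal weight per cell.

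The transporter genes were lower by CPM. Tap1, the first subunit of the peptide transporter, stood at 40.2 CPM with THP and 44.97 CPM with vehicle, a log2 ratio of -0.16. Tap2, its partner, stood at 30.9 and 37.5 CPM, a log2 ratio of -0.27. They ranked above 52.3% and 41.6% of all genes. Tapbp, which bridges the transporter and the heavy chain, stood at 105.9 and 98.04 CPM (log2 ratio 0.11). The sign for Tap1 depends on the scaling: with trimmed mean (TMM) factors, which scale on the bulk of genes, the log2 ratio was 0.12 for Tap1 and 0.01 for Tap2, and with the length trend removed it was 0.08 and -0.03.

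The immunoproteasome subunits and the regulator differed less than the surface complex. Psmb8 stood at 360.4 CPM with THP and 336.8 CPM with vehicle (log2 ratio 0.10). Psmb9 stood at 125.1 and 120.0 CPM (0.06). Psmb10 stood at 126.2 and 105.4 CPM (0.26), the highest ratio of the 3. Nlrc5, at 4.60 and 4.26 CPM, was under the 10 CPM floor of the genes compared. Its fold of 1.08 had an interval from 0.99 to 1.18, so no library difference was detectable at this depth.

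By CPM, 0 of the 10 genes was past 1.5-fold in either direction, where 2.33% of all 8012 genes were past it upwards and 17.3% downwards. At 2-fold the shares of all genes were 0.911% and 2.97%. With TMM factors or relative log expression (RLE) factors, H2-K1, H2-D1 and B2m were past it, at log2 ratios of 0.78, 0.79 and 0.79 with TMM. That scaling raises all genes alike and takes the count of all genes past the fold upwards from 187 to 563. With the length trend removed only Nlrc5, the longest transcript of the set, was past it, at 0.63. Nlrc5 was under the 10 CPM floor of the genes that gave the trend. The share of all genes past the fold on that scale was not counted. When the gated cell types below were given the same weights in both libraries, the ratios were 0.35 for H2-K1, 0.38 for H2-D1, 0.39 for B2m and -0.22 for Tap1, and Nlrc5 changed sign to -0.09.

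**Figure D1:**
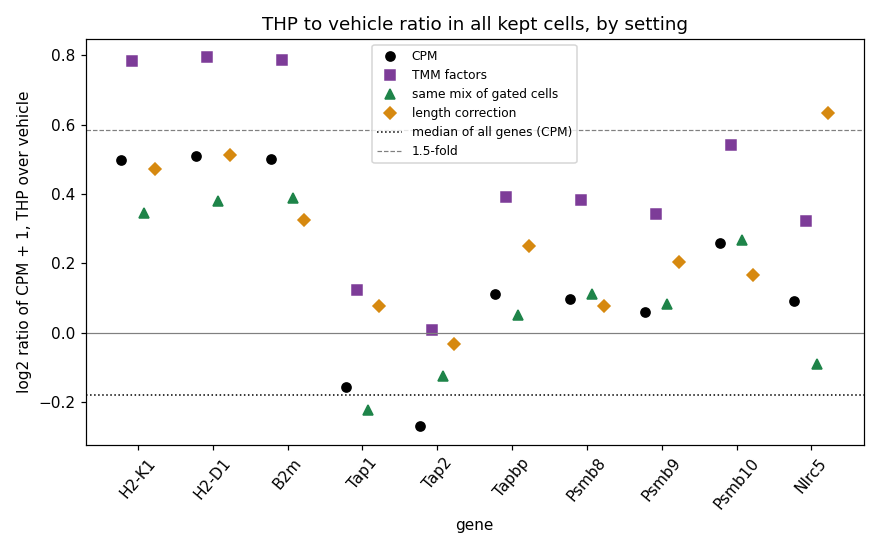
Log2 ratio of CPM + 1, THP over vehicle, of each gene in all kept cells (y axis) under CPM scaling, TMM factors, an equal mix of gated cells and a length correction (symbols). H2-K1, H2-D1 and B2m are above 0 under each of the 4 settings, and Tap1 is below 0 by CPM (-0.16) and above 0 with TMM factors (0.12).

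The cultures held several kinds of cells, which were separated by marker genes that include none of the 10. A cell was gated when its marker UMIs passed a type's threshold, and each gate is called "like" the type whose markers define it. The macrophage-like gate (C1qa, C1qb, C1qc, Adgre1, Mrc1, Csf1r, Cd68) held 3623 of the THP cells (29.9%) and 2119 of the vehicle cells (19.3%). The label of the cultures as macrophages therefore covers a mixture: immature and mature neutrophil-like cells made up 9.86% and 6.49% of the THP cells and 14.0% and 7.72% of the vehicle cells. The other gates used were MHC class II high (778 THP and 789 vehicle cells), osteoclast-like (590 and 560), monocyte-like (663 and 954), progenitor-like (694 and 951), progenitor-like with neutrophil genes (435 and 490), stromal-like (83 and 72) and B lineage-like (91 and 60). A gate is a range of a marker score and not a sharp type: 21.6% of the THP and 19.1% of the vehicle macrophage-like cells lay less than 25% above the threshold. Some gates allow a further type. MHC class II high and osteoclast-like cells could pass the macrophage threshold, progenitor-like cells that of monocytes, and immature neutrophil-like cells that of mature ones. Progenitor-like cells with neutrophil genes passed a progenitor and a neutrophil threshold. Stromal-like and B lineage-like cells could pass any other threshold except those of neutrophils, mast cells, lymphoid cells and each other. Cells past no threshold made up 18.6% and 14.2%, and cells past several that no gate allows 6.64% and 8.76%.

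Free or doublet RNA was gauged with the C1q genes, which neutrophils and B cells should lack. Relative to the macrophage-like level, C1q stood at 4.96% in the THP and 1.38% in the vehicle mature neutrophil-like cells, and at 36.1% and 0.706% in the B lineage-like cells. Macrophage markers had a median of 4.98 and 2.66 UMIs per 10000 in the mature neutrophil-like cells and of 0 in the B lineage-like cells of both libraries. These cells were also shallow, with medians of 2168 and 1923 UMIs in the mature neutrophil-like gate and 1981 and 3108 in the B lineage-like gate.

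H2-K1 stood first in B lineage-like cells, at 1118 CPM with THP and 1241 CPM with vehicle. MHC class II high cells followed at 996.5 and 732.9 CPM, and their interval overlapped that of B lineage-like cells with THP and that of macrophage-like cells with vehicle. Next came macrophage-like cells at 882.9 and 718.2 CPM, and osteoclast-like cells at 876.3 and 676.6 CPM. Monocyte-like cells (365.6 and 294.5 CPM) and progenitor-like cells (353.6 and 251.3 CPM) were far lower. The lowest levels were those of progenitor-like cells with neutrophil genes (245.7 CPM) in the THP library and immature neutrophil-like cells (168.4 CPM) in the vehicle library, and these neighbours overlapped in both. The highest and lowest gates differed 4.55-fold in the THP library and 7.37-fold in the vehicle library, more than the libraries differed in any gate.

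H2-D1 had another order. It was highest in osteoclast-like cells in the THP library (1919 CPM) and in mature neutrophil-like cells in the vehicle library (1449 CPM), and these 2 gates held the first and second place in both. Macrophage-like cells (1383 and 1062 CPM) and MHC class II high cells (1389 and 1047 CPM) overlapped. Progenitor-like cells with neutrophil genes were lowest, at 416.5 and 321.7 CPM. The ratio of H2-D1 to H2-K1 UMIs set the mature neutrophil-like cells apart: it was 5.32 (4.89 to 5.79) in the vehicle and 3.25 (3.05 to 3.47) in the THP library, against 1.48 and 1.57 in macrophage-like cells and 0.73 and 0.97 in B lineage-like cells. Immature neutrophil-like cells lay between, at 2.91 and 2.37. The ratio is read only between cell types and libraries, since gene length and capture differ between the genes.

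B2m was the most evenly spread of the surface complex, with a range of 3.00-fold over the gates in the THP and 2.96-fold in the vehicle library. It was high in osteoclast-like cells (2367 and 1724 CPM) and MHC class II high cells (2280 and 1726 CPM) and lowest in progenitor-like cells with neutrophil genes (789.6 CPM, THP) and progenitor-like cells (582.2 CPM, vehicle). The ratio of B2m to H2-D1 UMIs was lowest in mature neutrophil-like cells, at 0.79 with vehicle and 1.12 with THP, against 1.48 and 1.46 in macrophage-like cells.

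Tap1 and Tap2 peaked in different gates. Tap1 was highest in MHC class II high cells, at 64.6 CPM with THP and 78.3 CPM with vehicle, and stood at 43.0 and 51.1 CPM in macrophage-like cells and 27.5 and 34.6 CPM in progenitor-like cells. Tap2 was highest in progenitor-like cells, at 62.7 and 76.8 CPM, and stood at 24.5 and 25.04 CPM in macrophage-like cells. The ratio of Tap2 to Tap1 UMIs was 2.28 (2.03 to 2.56) and 2.22 (2.04 to 2.41) in progenitor-like cells and 0.57 (0.54 to 0.60) and 0.49 (0.46 to 0.52) in macrophage-like cells, with monocyte-like cells between at 1.02 and 0.99. The order of these 3 gates was the same in the 2 libraries. Of the 9 neighbouring pairs of gates, 8 overlapped for each of Tap1 and Tap2 in each library, so most neighbours cannot be told apart.

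Tapbp, like B2m, was high in osteoclast-like cells, with 155.4 and 141.2 CPM there against 63.3 and 63.8 CPM in progenitor-like cells with neutrophil genes. Nlrc5 was highest in macrophage-like cells (5.89 and 6.76 CPM), near it in osteoclast-like (5.60 and 5.26 CPM) and MHC class II high cells (4.69 and 6.42 CPM), and lower in monocyte-like (1.96 and 2.29 CPM) and progenitor-like cells (1.26 and 0.97 CPM). Only 2 Nlrc5 UMIs were counted in progenitor-like cells with neutrophil genes of each library.

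Psmb8, Psmb9 and Psmb10 were high in progenitor-like cells, where the surface complex was low. Psmb8, which takes the place of Psmb5 in the immunoproteasome, was highest in MHC class II high cells (544.2 and 514.2 CPM), followed by progenitor-like cells (446.9 and 437.3 CPM), and lowest in immature neutrophil-like cells (125.0 and 103.8 CPM). Psmb9, which takes the place of Psmb6, was also highest in MHC class II high cells (198.1 and 188.7 CPM) and was lowest in stromal-like cells (59.9 and 44.4 CPM). Psmb10, which takes the place of Psmb7, was highest in osteoclast-like cells in the THP library (151.3 CPM) and in monocyte-like cells in the vehicle library (133.7 CPM), and lowest in immature neutrophil-like cells (42.8 and 33.3 CPM). In the THP library the intervals of osteoclast-like and monocyte-like cells overlapped for Psmb10. Of its 9 neighbouring pairs of gates, 8 overlapped in the THP and 5 in the vehicle library.

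**Figure D2:**
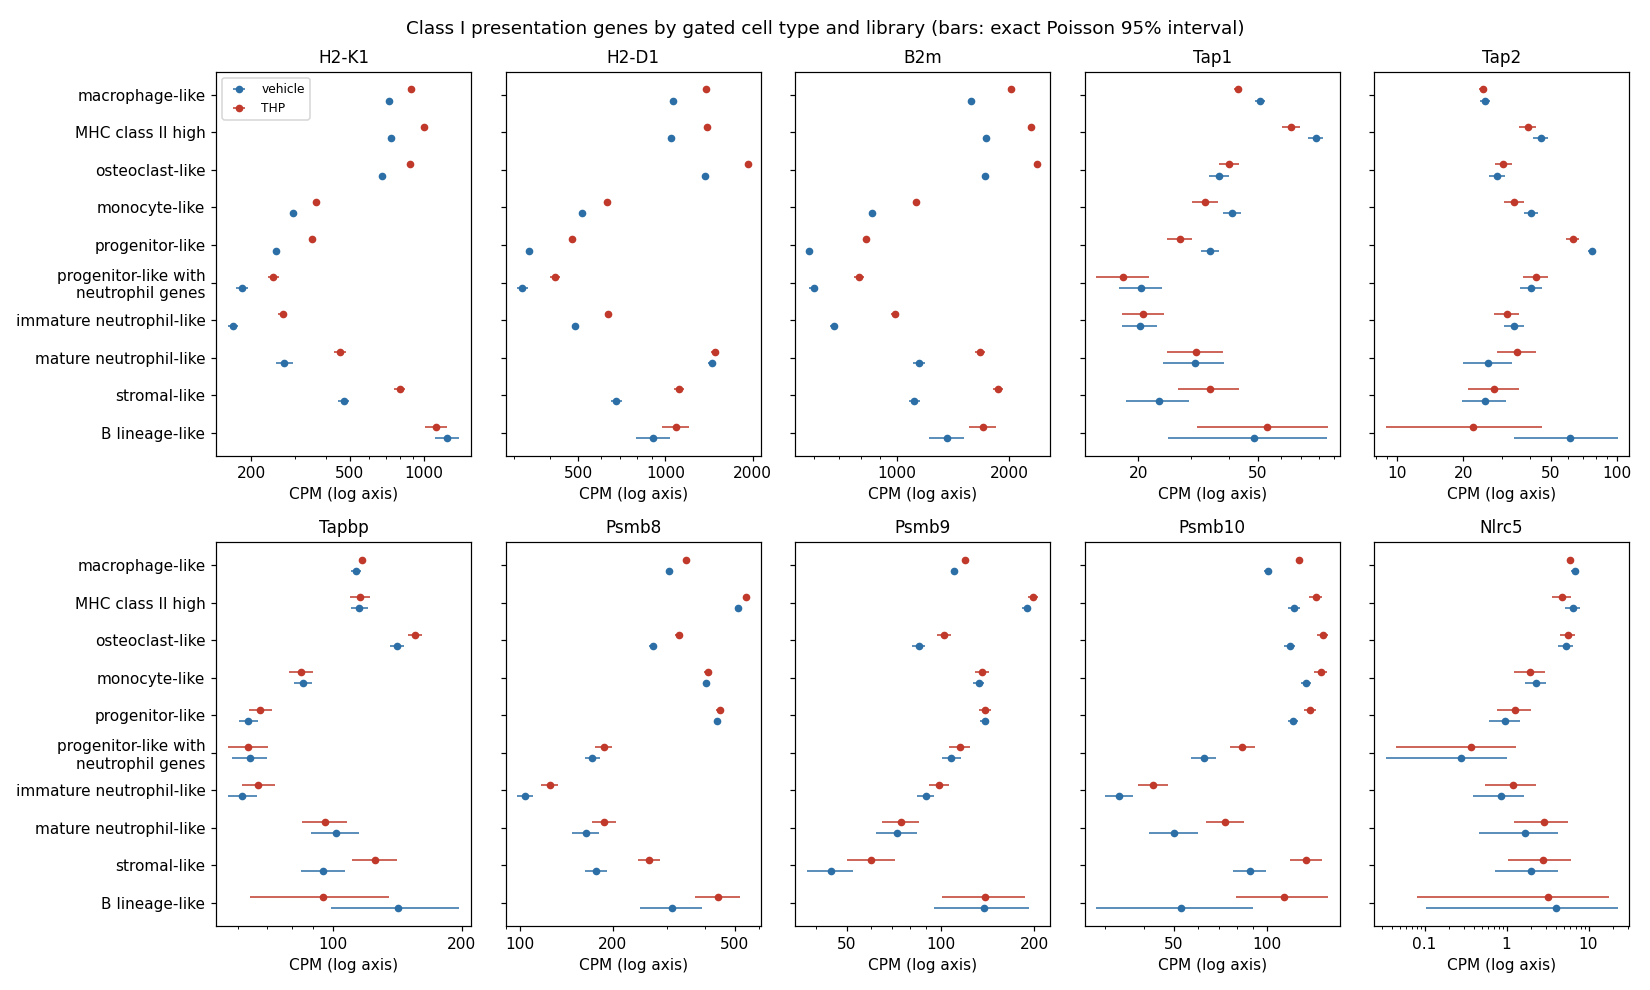
CPM of each gene (x axes, log scale) in 10 gated cell types (y axis) of the THP (red) and vehicle (blue) libraries; points are levels of summed UMIs and bars exact Poisson 95% intervals. H2-K1 ranges from 168.4 CPM in vehicle immature neutrophil-like cells to 1241 CPM in vehicle B lineage-like cells, and Tap2 peaks in progenitor-like cells at 62.7 and 76.8 CPM.

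In cells thinned to 2000 UMIs each, H2-K1 was seen in 79.9% (78.6 to 81.2) of THP and 72.8% (70.8 to 74.7) of vehicle macrophage-like cells. Without thinning the shares were 99.2% and 98.7%. In mature neutrophil-like cells the thinned shares were 50.7% (46.0 to 55.3) and 34.2% (29.5 to 39.2) for H2-K1, and 91.0% and 91.5% for H2-D1; unthinned they were 59.3% and 39.6%, and 95.3% and 95.6%. Of the THP cells of that gate 458 and of the vehicle cells 386 were deep enough to be thinned. Tap1 was seen in 8.42% and 9.14% of thinned macrophage-like cells. No cell type of these cultures is known to lack class I genes, so a background share could not be measured for them.

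The difference between the libraries was also taken within each gate. By CPM, B2m was higher in the THP library in 10 of 10 gates beyond counting error, with log2 ratios from 0.32 in B lineage-like to 0.75 in stromal-like cells. H2-K1 was higher in 9 of 10, from 0.30 in macrophage-like to 0.75 in stromal-like cells, and stood at -0.15 in B lineage-like cells, with a fold interval from 0.77 to 1.05. H2-D1 was higher in 9 of 10, from 0.26 in B lineage-like to 0.72 in stromal-like cells, and stood at 0.03 in mature neutrophil-like cells. Psmb10 was higher in 10 of 10 gates and Psmb8 in 8 of 10. Psmb9 was higher in 4 gates and lower in 0, and Tapbp higher in 3 and lower in 0. These counts hold by CPM only. How many of all genes did the same within the gates was not counted, so the counts are not read as a trait of these genes. Once the length trend was removed, B2m ran from -0.05 to 0.48 over the gates, with 0.17 in macrophage-like cells. H2-K1 then ran from -0.44 to 0.67 and H2-D1 from -0.01 to 0.70. Psmb8 ran from -0.02 to 0.50, Psmb9 from 0.05 to 0.49, Psmb10 from 0.05 to 0.74 and Tapbp from -0.54 to 0.47.

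By CPM the transporter went the other way in part of the culture. Tap1 was lower in the THP library beyond counting error in 4 gates (macrophage-like, MHC class II high, monocyte-like and progenitor-like, with log2 ratios of -0.24, -0.27, -0.29 and -0.32) and higher in the stromal-like gate (0.55). Tap2 was lower in 4 gates: MHC class II high (-0.19), monocyte-like (-0.25), progenitor-like (-0.29) and B lineage-like, where it rests on 7 and 15 UMIs. The median of all genes was -0.17 in macrophage-like cells, -0.22 in MHC class II high cells and -0.16 in both monocyte-like and progenitor-like cells. The share of all genes lower beyond counting error was not counted, so these calls are not read as a trait of Tap1 or Tap2. With the length trend removed, the Tap1 ratios in these 4 gates were -0.007, 0.036, -0.029 and -0.086, and those of Tap2 were 0.11 in MHC class II high, -0.024 in monocyte-like and -0.054 in progenitor-like cells. Tap2 in B lineage-like cells stood at -1.30 on that scale. Nlrc5 stood at 5.89 against 6.76 CPM in macrophage-like cells, with a fold interval from 0.761 to 0.998. Its log2 ratio of -0.17 was that of the median gene of the gate, and it was 0.35 with the length trend removed.

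Counts past 1.5-fold within gates were few. In 6 gates 0 of the 10 genes was past it. The share of all genes past it upwards and downwards was 2.38% and 16.2% in macrophage-like cells, 2.78% and 22.5% in MHC class II high cells, 1.69% and 16.1% in osteoclast-like cells, 2.14% and 17.0% in monocyte-like cells, 2.43% and 15.4% in progenitor-like cells, and 2.71% and 23% in progenitor-like cells with neutrophil genes. H2-K1 was past it upwards in the immature neutrophil-like gate (0.67), where 3.81% of all genes were and 25.1% were downwards, and in the mature neutrophil-like gate (0.74), where 9.3% were and 29.2% downwards. In the stromal-like gate H2-K1, H2-D1, B2m and Psmb10 were past it, with 7.66% of all genes upwards and 18.4% downwards. The stromal-like cells of the 2 libraries were unlike in other ways: their median stromal marker UMIs per 10000 were 55.3 with THP and 137 with vehicle, their median depth 21346 and 39385 UMIs, and their C1q level 24.3% and 18.4% of the macrophage-like level. Their leading genes by fold included Tagln and Acta2 with THP and Ibsp and Col5a2 with vehicle. The part of these differences in the stromal-like ratios was not tested. In the B lineage-like gate Psmb10 was past it upwards and Tap2 downwards, with 24% of all genes upwards and 28.4% downwards.

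**Figure D3:**
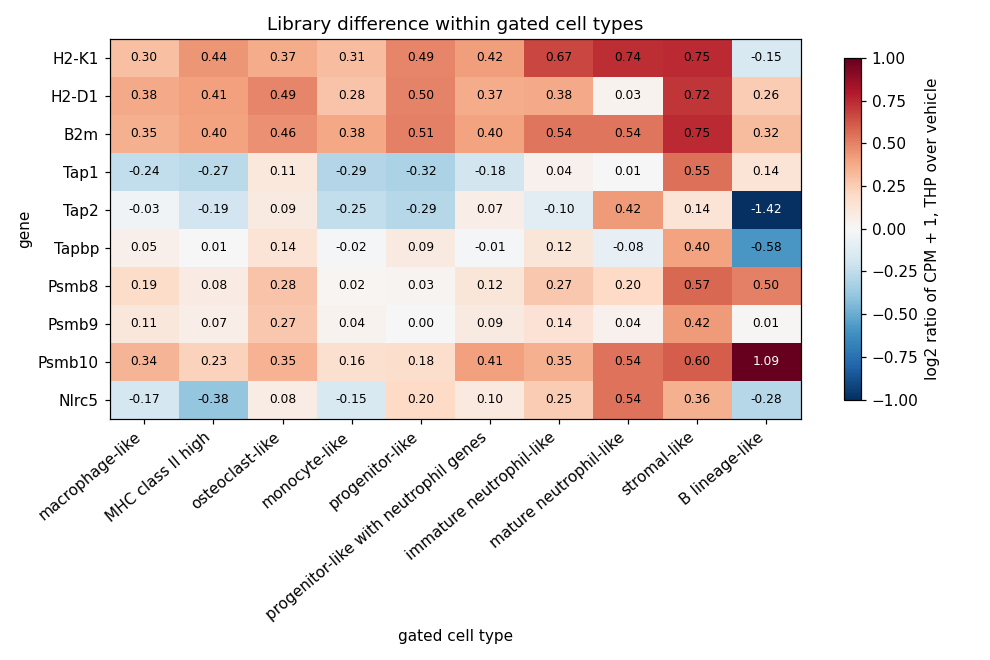
Log2 ratio of CPM + 1, THP over vehicle, of each gene (rows) in each gated cell type (columns); red is higher in the THP library, blue lower, and the colour scale ends at -1 and 1. The B2m row is above 0 in all 10 columns (0.32 to 0.75), and Tap1 is below 0 on this CPM scale in macrophage-like, MHC class II high, monocyte-like and progenitor-like cells.

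In mature neutrophil-like cells the heavy chains parted: H2-K1 stood at 455.5 CPM with THP and 272.4 CPM with vehicle, while H2-D1 stood at 1482 and 1449 CPM. The contrast in H2-D1 depends on which cells the gate takes in. With all gate thresholds doubled, which brought this gate to 1061 and 1170 cells, the log2 ratios were 0.82 for H2-K1 and 0.37 for H2-D1. Doubling also raised the thresholds of the types that the gate excludes, so it grew by taking in cells with more markers of those types. With the thresholds halved (538 and 683 cells) they were 0.61 and -0.01. Removing the macrophage-like profile in the share given by C1q, an alternative chosen after seeing the data, left 433.2 and 266.2 CPM for H2-K1 (0.70) and 1487 and 1454 CPM for H2-D1 (0.03). In B lineage-like cells the same subtraction left log2 ratios of 0.01 for H2-K1, 0.02 for H2-D1 and 0.16 for B2m. The part of depth and of free RNA from other cells in these values was not tested.

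Immunoproteasome subunits were set against the constitutive subunits they replace. Over all kept cells the ratio of Psmb8 to Psmb5 UMIs was 1.05 (1.04 to 1.06) in the THP and 1.19 (1.18 to 1.2) in the vehicle library, and that of Psmb9 to Psmb6 was 0.319 (0.315 to 0.323) and 0.41 (0.404 to 0.416). That of Psmb10 to Psmb7 was 0.79 (0.78 to 0.80) and 0.77 (0.76 to 0.78), whose intervals overlapped. Psmb5 and Psmb6 were themselves higher in the THP library, at 341.8 against 283.2 CPM and 392.2 against 292.7 CPM. These ratios within a library do not depend on the library scaling, but they change when the length trend is removed. The log2 ratio of Psmb8 minus that of Psmb5 was -0.17, and -0.015 with the length trend removed. For Psmb9 minus Psmb6 it was -0.36 and -0.06, and for Psmb10 minus Psmb7 0.04 and -0.21.

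By cell type, Psmb8 per Psmb5 was high in B lineage-like cells (2.37 and 2.75) and MHC class II high cells (1.84 and 2.17), near 1 in macrophage-like cells (1.05 and 1.18), and lowest in progenitor-like cells with neutrophil genes in the THP library (0.60) and stromal-like cells in the vehicle library (0.55). Psmb9 per Psmb6 was 0.58 and 0.71 in MHC class II high cells and only 0.18 and 0.20 in osteoclast-like cells. Psmb10 per Psmb7 was lowest in immature neutrophil-like cells (0.44 and 0.40). Stromal-like cells had the opposite library difference for Psmb8, with 0.73 in the THP and 0.55 in the vehicle library, and osteoclast-like cells had ratios of 0.904 and 0.903, each with an interval from 0.87 to 0.939.

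**Figure D4:**
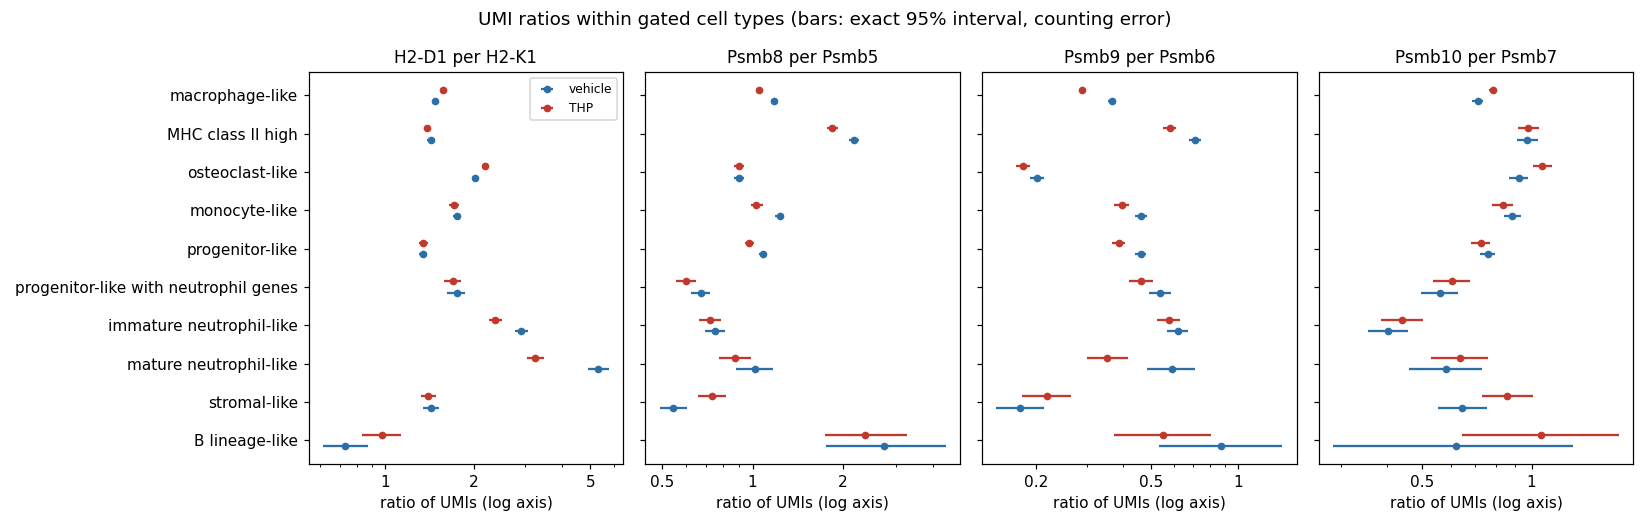
Ratio of UMIs of H2-D1 to H2-K1 and of each immunoproteasome subunit to the subunit it replaces (x axes, log scale) by gated cell type (y axis) in the THP (red) and vehicle (blue) libraries, with exact 95% intervals. H2-D1 per H2-K1 is highest in mature neutrophil-like cells (5.32 vehicle, 3.25 THP), and Psmb8 per Psmb5 is 1.84 and 2.17 in MHC class II high cells.

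Macrophage-like cells of at least 5000 UMIs were then placed in 4 ranges by their share of UMIs from 24 interferon-stimulated genes, none of them among the 10. The limits were 4.65, 12.7 and 31.4 UMIs per 10000, the same for both libraries, and the top range held 74 THP and 37 vehicle cells. Tap1 went from 35.9 CPM in the lowest range to 89.6 CPM in the highest in the THP library, 2.49-fold, and from 41.8 to 126.7 CPM in the vehicle library, 3.03-fold. Nlrc5 went from 5.07 to 11.3 CPM (2.22-fold) and from 5.00 to 16.6 CPM (3.32-fold). The top range of Nlrc5 rests on 23 and 16 UMIs.

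The other genes followed with smaller steps. Psmb9 and Psmb10 were 1.64 and 1.65-fold higher in the top than in the lowest range of THP cells, and 1.61 and 1.78-fold in vehicle cells. Tap2 was 1.61 and 2.14-fold higher, Tapbp 1.49 and 1.63-fold, and Psmb8 1.37 and 1.64-fold. The surface complex varied least: H2-K1 1.18 and 1.34-fold, H2-D1 1.09 and 1.38-fold, and B2m 1.12 and 1.24-fold. In THP cells these genes stood higher in the range below the top, of 279 cells, at 1.23, 1.16 and 1.17-fold. Between the libraries, in all macrophage-like cells, the log2 ratios were 0.30 for H2-K1, 0.38 for H2-D1, 0.35 for B2m, 0.34 for Psmb10 and -0.24 for Tap1, against a median gene of -0.17. C1qa, a macrophage marker, was 1.44-fold and 0.75-fold over the same ranges, and the median depth was 19659 and 20332 UMIs in the top range against 21168.5 and 23510.5 in the lowest. The ranges are cells of 1 library each and no replicates, and the part of the macrophage marker in these steps was not tested.

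**Figure D5:**
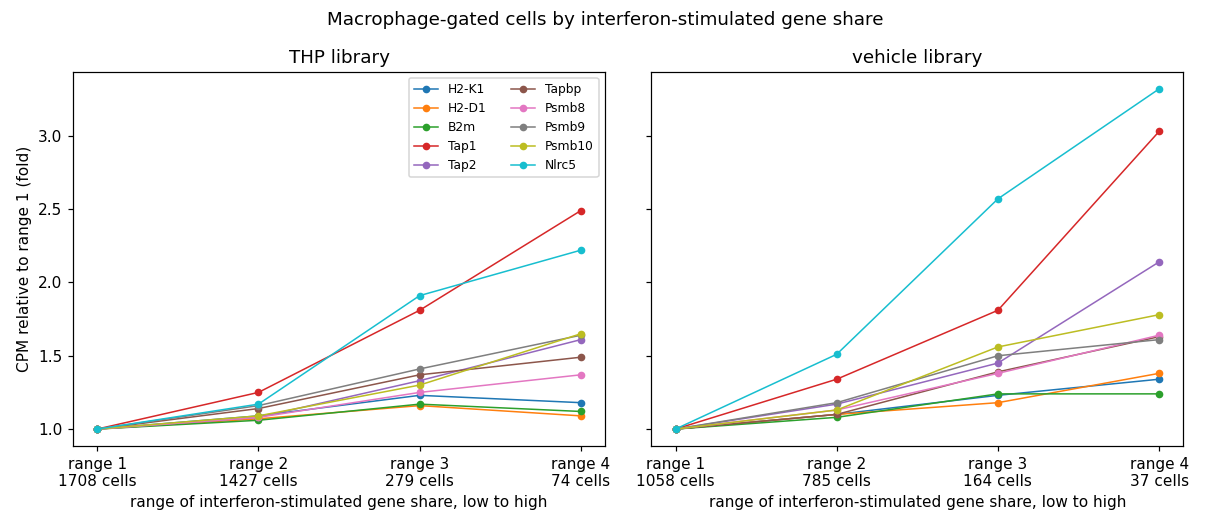
CPM relative to the lowest range (y axis, fold) of each gene in macrophage-like cells placed in 4 ranges of interferon-stimulated gene share (x axis, with cell numbers), for the THP (left) and vehicle (right) libraries. Tap1 reaches 2.49-fold and 3.03-fold in the top range, while B2m reaches 1.12-fold and 1.24-fold.

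Other genes of the pathway were taken from 6 lists. Beside them, 2.33% of all 8012 genes compared were past 1.5-fold upwards and 17.3% downwards, with a median log2 ratio of -0.18. Of 17 other class I heavy chain genes 15 were in the files and 7 were at 10 CPM or more. Their median log2 ratio was 0.15, with H2-Q7 past 1.5-fold upwards and H2-T24 downwards. Both reached 10 CPM only in the library where they were higher, so these 2 calls rest in part on the filter. With TMM factors 6 genes were compared, with 2 past the fold upwards and 0 downwards. H2-Q7, a nonclassical heavy chain, stood at 19.7 CPM with THP and 9.59 CPM with vehicle (0.97). H2-T24 stood at 3.87 and 10.2 CPM (-1.20) and H2-M3, which presents formylated peptides, at 34.1 and 26.2 CPM (0.37). H2-T23, the Qa-1 heavy chain, stood at 86.4 and 77.6 CPM (0.15), and H2-T22 at 43.4 and 39.1 CPM (0.15).

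Loading and trimming factors had a median log2 ratio of -0.46, against -0.18 for all genes. Of 10 genes, 0 was past 1.5-fold upwards and 2 downwards, where 17.3% of all genes were past it downwards, so the count is near that share. The 2 were Lnpep (64.6 against 111.0 CPM), an aminopeptidase of endosomes, and Uggt1 (38.8 against 65.9 CPM), which checks glycoprotein folding. Erap1, which trims peptides in the endoplasmic reticulum, stood at 24.8 and 37.7 CPM (-0.58), Pdia3, a partner of tapasin in the loading complex, at 376.3 and 528.1 CPM (-0.49), and Canx, the chaperone calnexin, at 253.1 and 350.9 CPM (-0.47). With the length trend removed these 5 lay between -0.37 for Pdia3 and -0.13 for Erap1.

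The list of the proteasome core held Psmb5, Psmb6 and Psmb7, which the immunoproteasome subunits replace, and other core subunits. Its ratios were above 0 in 14 of 14 genes, with a median log2 ratio of 0.21 and 0 past 1.5-fold. The share of all genes above 0 was not counted. The largest ratios of the list were those of Psmb6 (0.42), Psmb3 (0.33), Psma6 (0.33), Psmb2 (0.32) and Psmb5 (0.27). Psmb8 (0.10) and Psmb9 (0.06) lay under this median and Psmb10 (0.26) above it. With the length trend removed the median was 0.13, with Psmb8 at 0.08, Psmb9 at 0.21 and Psmb10 at 0.17. Among 7 activator and assembly genes the median was 0.09. Psme2, a subunit of the interferon-inducible proteasome activator, stood at 385.0 and 278.5 CPM (0.47), its partner Psme1 at 283.8 and 255.7 CPM (0.15), and Pomp, which assembles the core, at 469.6 and 406.8 CPM (0.21). Psme4, another activator, was past 1.5-fold downwards at 36.0 and 60.9 CPM (-0.74), and Psme3 stood at 0.09.

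Of 13 transcription factors of class I genes 11 were at 10 CPM or more, with 0 past 1.5-fold and a median log2 ratio of -0.23, which is 0.05 with TMM factors. Nfkb1, an NF-kB subunit, stood at 124.3 and 84.1 CPM (0.56) and Rela, its partner, at 46.2 and 36.0 CPM (0.35). Irf2, an interferon regulatory factor, stood at 87.6 and 123.5 CPM (-0.49) and Creb1, a factor of the X2 box, at 35.3 and 47.9 CPM (-0.43). Of 25 interferon-stimulated genes 24 were in the files and 18 at 10 CPM or more. Of these, 4 were past 1.5-fold upwards and 1 downwards, against 2.33% and 17.3% of all genes. Their median was 0.07, against -0.18 for all genes. Cxcl10, a chemokine, stood at 75.2 and 19.1 CPM (1.93), Isg15, a ubiquitin-like protein, at 89.3 and 52.2 CPM (0.76), Rsad2, the antiviral enzyme viperin, at 20.2 and 11.8 CPM (0.73) and Ifit1 at 19.7 and 12.7 CPM (0.60). Ifit2, of the same family as Ifit1, was the 1 past it downwards, at 6.31 and 11.2 CPM (-0.74). It reached 10 CPM only in the vehicle library, where it was higher, so this call rests in part on the filter. With TMM factors 19 genes of the list were compared, with 6 past the fold upwards and 0 downwards.

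Over the 20 combinations of gate and library, the mean log2(CPM + 1) of the 10 genes had its closest likeness in Fam49a (Pearson r 0.96), Phf11b (0.95), H2-M3 (0.94), Ifi203 (0.94) and Plekho1 (0.91). Among the 10 themselves Tap1 was closest to that mean (0.92) and Tap2 farthest (-0.10). Each of the 10 is part of the mean, so their r values cannot be set beside those of the other genes. These are descriptions over 20 points that share 2 libraries and differ in depth. Of the 5 like genes Fam49a stood at 41.8 and 25.7 CPM in the 2 libraries (log2 ratio 0.68) and H2-M3 at 0.37, whereas Ifi203 stood at 60.9 and 74.8 CPM (-0.29).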

How the data were processed

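The deposited files are matrices of raw UMI counts per gene and cell barcode, 1 library per group, with software version 3.1.0 per the file headers. The submitters' processing notes name Cell Ranger, STAR, bcl2fastq and the mm10 build; no release of the gene annotation is named there. Barcodes with at least 500 genes, at least 1000 UMIs and at most 10% mitochondrial UMIs were kept. Doublets were not removed; an alternative drops the 5% of cells with most UMIs. UMIs were summed per library or gate, scaled to CPM and compared as the log2 ratio of CPM + 1, which understates differences of low genes. No p-value was computed. TMM and RLE factors came from edgeR 4.0.16, and the length trend was a running median over 501 genes by longest GENCODE M21 transcript, tested on simulated data. Cells were gated on marker UMIs per 10000 (macrophage 15, mature neutrophil 500, immature neutrophil 200, progenitor 50, monocyte 15, MHC class II 50, osteoclast 20, stromal 10, B lineage 10, mast cell 20, lymphoid 10) with at least 2 markers detected. Thresholds were set after viewing marker distributions, and the rules for combining gates after a view that also showed the 10 genes. Gates with at least 50 cells in each library were used, 10 of 12. The mast cell or basophil gate (54 and 35 cells) and the lymphoid gate (65 and 45) were left out. Thinning drew 2000 UMIs per cell. The genes and lists were chosen with earlier results of these data known. The 10 genes are all named, with up to 5 genes per list of largest absolute log2 ratio at 10 CPM or more, and the 5 most like the mean of the 10 by Pearson r. The values of 1 gene that this rule names are not reported here.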

Additional observations from a re-analysis of the deposited data

Results flagged for a closer look

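Barcodes that the cell filter left out, 1070 in the THP and 606 in the vehicle library, were used in no comparison. H2-K1, H2-D1, B2m, Psmb8 and Psmb10 stood higher in the THP than in the vehicle barcodes left out, with counting intervals that did not overlap. Tap2 stood lower, at 51.65 against 76.93 CPM, also without overlap. How many of all genes did the same was not counted, so this is not read as a trait of these genes. H2-K1 stood at 1189 CPM (1145 to 1234) in the THP and 711.9 CPM (668.9 to 757.0) in the vehicle barcodes. H2-D1 stood at 1634 and 947.6 CPM, and B2m at 1640 and 1076 CPM. Psmb8 stood at 208.3 and 146.9 CPM, and Psmb10 at 86.4 and 55.3 CPM. These barcodes held 2304186 and 1429915 UMIs, and with them included the H2-K1, H2-D1 and B2m ratios of the libraries were 0.50, 0.51 and 0.50, as without them.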

How the results depend on the processing

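No paired analysis was possible because each group has 1 library, and for the same reason no library could be left out. Members past 1.5-fold upwards numbered 3 with TMM factors, 3 with RLE factors and 1 with the length correction. All genes past it upwards numbered 187 by CPM, 563 with TMM and 546 with RLE factors, and 73 at 2-fold; downwards 1387, 450, 460 and 238. List medians with TMM and RLE factors were 0.43 and 0.42 for other class I heavy chains (0.018 without the filter), -0.17 and -0.18 for loading and trimming, 0.49 and 0.48 for the proteasome core, 0.37 and 0.37 for activator and assembly, 0.052 and 0.046 for transcription factors, and 0.35 and 0.34 for interferon-stimulated genes. The median of all genes was 0.11 with TMM and 0.10 with RLE factors, so medians are best read against it. H2-K1, H2-D1 and B2m stayed above 0 under each of the 9 alternatives run in all kept cells. Of 27 ratios of these 3 genes within gates, 21 stayed within their counting interval after the C1q subtraction and 6 moved out of it. The subtraction takes all C1q as RNA of macrophage-like cells. MHC class II high, osteoclast-like and stromal-like gates could hold cells past the macrophage threshold, so in them it does not measure free RNA alone. Without the top 5% of cells the stromal-like gate held too few cells. Depth limits Nlrc5 in each gate and most genes in the B lineage-like gate.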
